A study of Mus musculus with 6 samples.

Results

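Resident macrophage identity genes are described here in mouse RPE/choroid, the retinal pigment epithelium (RPE) with the vascular layer behind it. The 9 genes are Csf1, Csf1r, Maf, Cd163, Mrc1, Lyve1, Folr2, Timd4 and Aif1, and each had a line of its own among the 33924 genes of the deposited table. They were taken by gene symbol. The set had been chosen by its known macrophage roles together with the values of the study's age comparison of these libraries, so the choice is not independent of age. Tissue came from 3 young and 3 aged C57BL/6J mice, without a transgene or treatment, and was sequenced as libraries of polyadenylated RNA. Young mice were 1 to 2 months old by the labels, and the methods give a somewhat older range. The aged mice were 20 to 24 months old by the sample titles, and their time field reads 22 to 24 months. All mice are labelled male, whereas the methods describe both sexes. Per the methods, each sample held a pair of eyes.

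The level reported for each gene is the authors' mean normalized count, averaged over the 6 libraries of both age groups, so it has no SD and no value for a single mouse. The table also carries the authors' own comparison of the age groups, which was not used here. No difference between young and aged RPE/choroid is therefore given for any gene, and nothing can be said of how far the groups overlap. The samples are whole pieces of tissue, in which the number of macrophages and the RNA per macrophage cannot be told apart.

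Resident macrophages live in most tissues, the choroid included, and take up debris, pathogens and spent plasma proteins there. They depend on the receptor tyrosine kinase Csf1r, which binds the cytokines Csf1 and Il34. Macrophages along blood vessels often carry the scavenger and lectin receptors Cd163 and Mrc1, the hyaluronan receptor Lyve1 and the folate receptor Folr2, and some long-lived ones carry Timd4, a receptor for phosphatidylserine on dying cells. Maf is a transcription factor of the mature macrophage state, and Aif1 encodes Iba1, an actin-binding protein used to stain macrophages and microglia.

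All 9 genes were detected, over a wide range of abundance. The highest was Csf1r with an authors' mean normalized count of 5719, rank 1392 among all genes, and the lowest was Timd4 with 22.3. Mrc1 had a mean normalized count of 2749. Maf (1425), Csf1 (1110) and Aif1 (1014) formed a middle group on the same scale. Cd163 had 208, Folr2 164 and Lyve1 86.8. Csf1r alone held 45.8% of the summed mean normalized count of the 9 genes, and Csf1r with Mrc1 held 67.8%. The 9 genes together held 0.0306% of the summed level of all genes.

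Among the 25517 genes with a level above 0, Csf1r exceeded 94.5% and Mrc1 86.9%. Maf exceeded 76.5%, Csf1 72.1% and Aif1 70.5%. These 5 genes lay above the median of all genes above 0 (211) and also above the median of the 18479 genes that reached a mean of 10 (668). The other 4 lay below both medians. Cd163 exceeded 49.8% of the genes above 0, Folr2 47.8%, Lyve1 42.6% and Timd4 33.0%. Per kilobase of the longest transcript, Folr2 changed sides. It then lay above the median of the genes above 0, with 137 mean normalized counts per kilobase against 90.8, and remained below that of the genes that reached a mean of 10 (213). Cd163, Lyve1 and Timd4 were below both medians on either scale.

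**Figure D1:**
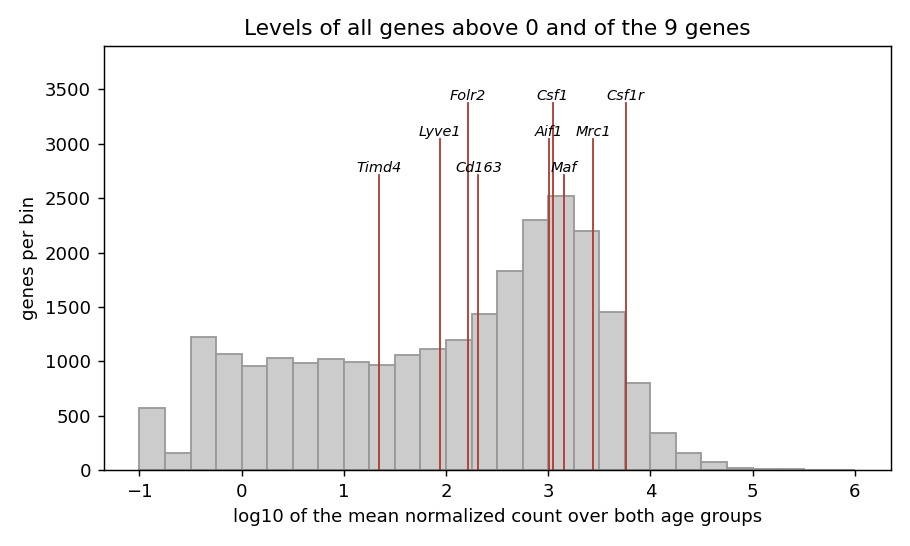
Number of genes (y axis) by log10 of the mean normalized count over both age groups (x axis) for the 25517 genes above 0, with a red line at each of the 9 genes. Csf1r (5719) stands on the right shoulder of the distribution, and Timd4 (22.3) lies to the left of the main peak.

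The depth behind the means could be read from the lowest values of the table. A gene with 1 count in 1 library has a mean of 1 count divided by that library's size factor and by 6, and the 576 genes in this range took 6 values, between 0.157 and 0.174. Each mean could therefore be bounded as a number of counts over the 6 libraries, which was 32903 to 36462 for Csf1r, 499 to 553 for Lyve1 and 128 to 142 for Timd4. Counting alone gives a relative standard error of at most 8.84% for Timd4, 4.48% for Lyve1 and 0.551% for Csf1r. These errors leave out the differences between mice and ages, which the pooled means do not show, and they take each count as 1 read pair, although the authors had rescaled the libraries to total counts beforehand.

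Levels of different genes were compared per kilobase of transcript. Csf1r (ENSMUSG00000024621) is a plus-strand gene of chromosome 18, between 61100598 and 61132149 in GRCm38. Csf1r overlaps the protein-coding gene Hmgxb3 on the other strand and the microRNA gene Mir6983 on its own strand. Its longest transcript has 21 exons and 4701 bases, and its level was 1217 mean normalized counts per kilobase, the highest of the 9 genes. Csf1 (ENSMUSG00000014599), a ligand of this receptor, is a minus-strand gene of chromosome 3, between 107741048 and 107760469, and had 266 mean normalized counts per kilobase. The receptor was thus 4.58 times as abundant per kilobase as this ligand. The ratio was 2.91 with coding lengths and 7.69 with median transcript lengths in place of the longest transcripts.

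The second ligand, Il34, had 252 mean normalized counts per kilobase, close to Csf1 with a ratio of Csf1 to Il34 of 1.05. With the median transcript length of each gene the ratio was 0.789, so the order of the ligands depended on the length used. Among the other genes of the receptor's axis, Tyrobp, an adaptor of several myeloid receptors, had 9399 mean normalized counts per kilobase. Grb2, an adaptor to Ras signaling, had 856, the phosphatase gene Ptpn6 had 601 and Inpp5d, encoding a lipid phosphatase, had 167. Csf1r was thus second to Tyrobp among the 7 genes of this list. Grb2 is used in nearly all cells.

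Maf (ENSMUSG00000055435), on chromosome 8 between 115682942 and 115707794, minus strand, had 224 mean normalized counts per kilobase of a longest transcript of 6360 bases in 1 exon. An antisense gene, Gm15655, overlaps it on the other strand. It stood close to Spi1, the gene of the myeloid factor PU.1, with 213, and to Irf8 with 297. Cebpb (533), Cebpa (506) and Nr1h3 (343), which encodes a sterol-sensing receptor, were higher per kilobase, and Runx1 was lower with 101. Id3 had 10541, the highest of the 9 transcription regulators listed. Maf is also made in lens and other cells, and Id3 in many cell types of the eye. Which cells supplied these transcripts was not tested.

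Aif1 (ENSMUSG00000024397), on chromosome 17 between 35170991 and 35176068, minus strand, had a short longest transcript of 875 bases. Per kilobase it had 1159 mean normalized counts, second to Csf1r, although 4 of the genes exceeded it by mean normalized count. With coding lengths Aif1 was above Csf1r, with 2300 against 1951 mean normalized counts per kilobase. With median transcript lengths Csf1r was above Aif1 again, with 4069 against 1309, a ratio of 3.11. Their order and their distance therefore depended on the length used.

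Mrc1 (ENSMUSG00000026712), which encodes the mannose receptor CD206, spans 102666 bases of chromosome 2 between 14229392 and 14332057, plus strand, and holds the microRNA gene Mir511. It had 512 mean normalized counts per kilobase, the highest of the 5 uptake receptors. Folr2 (ENSMUSG00000032725), on chromosome 7 between 101839988 and 101857194, minus strand, followed with 137. Its span is overlapped on the other strand by the antisense gene Gm10602 and a pseudogene. The ratio of Mrc1 to Folr2 was 3.75 per kilobase.

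The hemoglobin scavenger receptor gene Cd163 (ENSMUSG00000008845), on chromosome 6 between 124304656 and 124330527, plus strand, had 46.7 mean normalized counts per kilobase. Lyve1 (ENSMUSG00000030787), on chromosome 7 between 110850607 and 110863239, minus strand, had 30.0. Cd163 was 1.56 times as abundant per kilobase as Lyve1, but the ratio was 1.00 with median transcript lengths and 0.656 with coding lengths. These neighbours could not be put in order. Timd4 (ENSMUSG00000055546), on chromosome 11 between 46810800 and 46844332, plus strand, had 10.2, the lowest of the 9. Mrc1 was 11.0 times as abundant as Cd163, 17.1 times as Lyve1 and 49.9 times as Timd4 per kilobase of the longest transcripts. With coding lengths these ratios were 10.5, 6.92 and 29.1, and with median transcript lengths 15.7, 15.7 and 72.1.

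**Figure D2:**
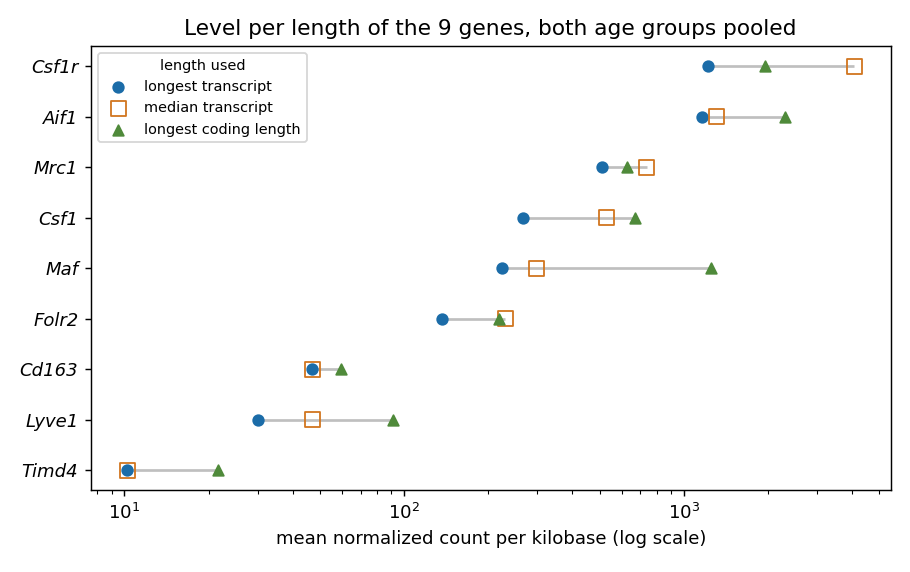
Mean normalized count per kilobase over both age groups (x axis, log scale) of each of the 9 genes (y axis), with a point for each length used. Csf1r and Aif1 are at the top, with 1217 and 1159 per kilobase of the longest transcript, and change places with coding lengths, while Timd4 (10.2) is lowest with all 3 lengths.

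The members held almost no sequence shared with transcripts of other genes read in the same direction, so that few such reads could have been split. Words were compared in the direction of transcription only, so overlaps with genes on the opposite strand were not examined. All words of 50 bases in the transcripts of 7 of the 9 genes were found in no other gene. For Cd163 the share was 99.9%, and for Maf it was 99.7%.

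The list of resident and perivascular macrophage genes held the 5 uptake receptors and 9 further genes. All 14 reached a mean of 10, and their median was 300.1 per kilobase. Of the 5 receptors, Mrc1 lay above this median and Folr2, Cd163, Lyve1 and Timd4 lay below it. Timd4 was the lowest gene of the list. Gas6, a bridging ligand for uptake of dying cells that RPE and other cells also make, was the highest with 8513.

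The 16 general macrophage genes, Aif1 among them, had a median of 1200 mean normalized counts per kilobase of the longest transcript. Csf1r (1217) and Aif1 (1159) were near this median, which was taken with that length only. The lysozyme gene Lyz2 was by far the most abundant with 92625, and Cd14, the lipopolysaccharide coreceptor, was the least abundant with 247. All 16 reached a mean of 10. Reads of Lyz2 may have been split with its close copy Lyz1. For comparison, the median was 447 over 8 microglial genes, where Sall1, a factor that defines microglia, had 3.39. It was 65.3 over 5 monocyte genes, where Plac8 had 1469 and Chil3 65.3. Over 7 dendritic cell genes it was 51.3, where Itgax had 356 and Batf3 51.3. Csf1r and Aif1 are also transcribed in microglia and monocytes, and their share of the levels was not tested.

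Lyve1 also marks lymphatic vessels. Of the 5 other genes of that list, Pdpn had 7673 mean normalized counts per kilobase, and is also made by RPE and fibroblasts, whereas Prox1, the defining factor of lymphatic endothelium, had 7.33. The median of the list was 36.9 and that of 7 blood vessel endothelial genes was 912, where Kdr had 1244 and Cdh5 179. Ccl21a, named after its value was seen, had 114. The list thus ranged widely, with Prox1 below Lyve1 (30.0) and Ccl21a and Pdpn above it, and the part of lymphatic cells in the level of Lyve1 was not tested.

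The tissue label was checked against markers of the other cells it could hold. The RPE list had a median of 34564 mean normalized counts per kilobase over 8 genes, with Ttr at 335233 and Best1 lowest at 39.3. Melanocyte genes had a median of 33901, skeletal muscle genes 28023, rod photoreceptor genes 7130 and fibroblast genes 6447. RPE also makes the pigment genes of the melanocyte list, so the median of that list does not tell melanocytes from RPE. Cnga1, a rod channel gene, had 1612. Myh4, a muscle myosin gene, had 8136 and Ckm 12809. The pigment enzyme gene Dct had 74294 and Ednrb 3846, and the matrix gene Dcn had 18042 and Pdgfra 798. Besides RPE and choroid, retina and muscle RNA was thus present in these libraries. Csf1r, the highest of the 9 genes, was below each of these 5 medians.

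**Figure D3:**
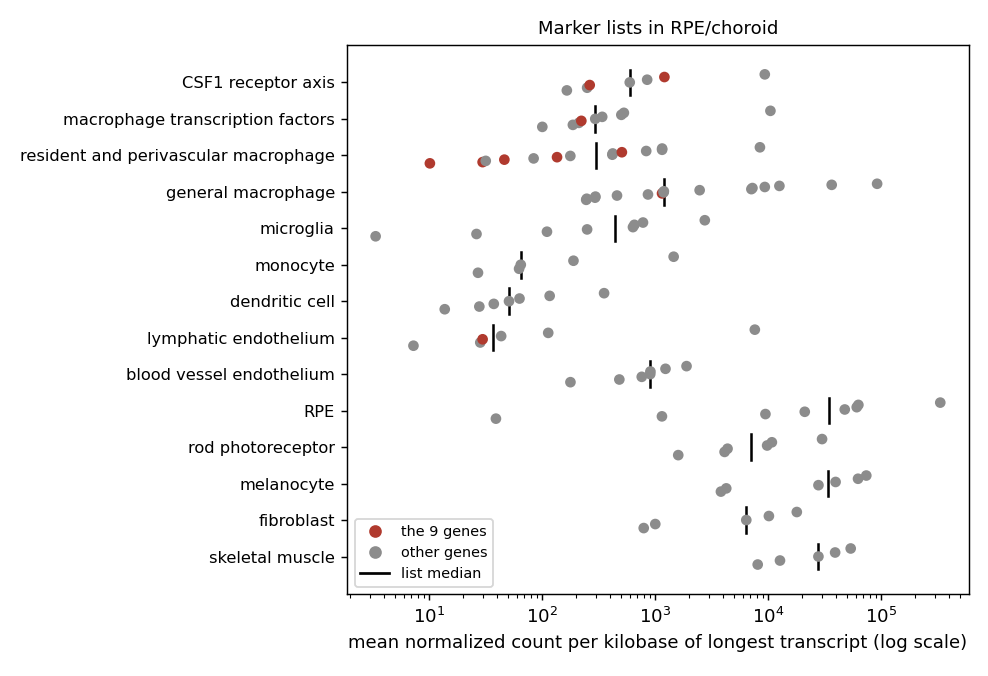
Mean normalized count per kilobase of the longest transcript over both age groups (x axis, log scale) for the genes of each marker list (y axis), with the 9 genes in red, other genes in grey and a bar at each list median. The resident macrophage receptors spread from 10.2 for Timd4 to 512 for Mrc1, left of the RPE median of 34564.

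The 250 bases before the RefSeq transcription start were read for the 6 members that RefSeq promoter windows (GRCm38.p6) covered, Csf1, Cd163, Mrc1, Folr2, Timd4 and Aif1, in 7 windows because Folr2 had 2. They were searched on both strands for GAGGAA, the core of the box bound by PU.1, the factor encoded by Spi1. Mrc1 held 3 matches and Aif1 1, and the other 5 windows held none, where 23.3% of all 32851 windows held at least 1. The half-site TGCTGA of Maf proteins was found in both Folr2 windows and in that of Timd4, against 16.1% of all windows. By the GENCODE coordinates, all 250 bases of the second Folr2 window lie inside the gene. TATAAA was in none of the 7 windows and in 12.4% of all windows. The motifs share no letters of a match in these windows. Csf1 was among the genes without a match to GAGGAA. It exceeded Aif1 by mean normalized count but was below Aif1 per kilobase of the longest transcript (266 against 1159). With median transcript and coding lengths Csf1 was also below Aif1. Whether a match goes with the level was not tested. The windows of Mrc1, Aif1 and Cd163 are printed 5′ to 3′ on the gene's strand, with GAGGAA matches on either strand in capitals. They lie at chr2:14229164-14229413 on the plus strand, chr17:35176053-35176302 on the minus strand and chr6:124304401-124304650 on the plus strand.
Mrc1: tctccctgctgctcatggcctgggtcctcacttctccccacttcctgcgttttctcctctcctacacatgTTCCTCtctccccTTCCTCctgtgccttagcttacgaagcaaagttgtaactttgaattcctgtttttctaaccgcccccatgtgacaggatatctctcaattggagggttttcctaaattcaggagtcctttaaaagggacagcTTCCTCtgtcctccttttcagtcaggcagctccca
Aif1: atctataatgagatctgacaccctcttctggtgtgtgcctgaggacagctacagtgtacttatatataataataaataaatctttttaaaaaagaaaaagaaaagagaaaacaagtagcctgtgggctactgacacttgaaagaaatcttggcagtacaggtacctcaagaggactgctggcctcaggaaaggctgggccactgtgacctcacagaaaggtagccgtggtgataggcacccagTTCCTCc
Cd163: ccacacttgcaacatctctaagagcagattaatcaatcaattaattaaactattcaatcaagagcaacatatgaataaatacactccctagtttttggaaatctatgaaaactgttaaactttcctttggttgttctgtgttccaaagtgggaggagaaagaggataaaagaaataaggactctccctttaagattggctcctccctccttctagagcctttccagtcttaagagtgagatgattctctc

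Every match in these windows reads TTCCTC on the printed strand, so the box lies on the opposite one. In Aif1 the match stands at the end of the window. By the GENCODE coordinates the last 16 bases of the Aif1 window and the last 22 of the Mrc1 window already lie inside the gene, so the Aif1 match is upstream of the RefSeq start only. The Cd163 window held 0 CpG dinucleotides and 36.8% G and C, against a median of 52.4% over all windows, whereas the Csf1 window held 10 CpG dinucleotides and 56.4%. The Mrc1 window had 49.6% and that of Aif1 43.6%. A match describes the letters only, and binding of a factor was not measured.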

How the data were processed

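Polyadenylated RNA of RPE/choroid of 3 mice per age group was read by the authors as paired-end sequences. Per the methods, the authors trimmed reads with BBDuk and mapped them with STAR to Ensembl GRCm38 transcripts (release 82). Per the same methods, TPM values came from Sailfish and were turned into normalized counts by total count. The deposited signal used here is the authors' DESeq2 mean normalized count over the libraries of both groups. The 5 columns of the authors' own comparison (fold change, its standard error, statistic, p-value and adjusted p-value) were not used, so the planned age test was not run and no test was made. Depth of single libraries is unknown. The means add up to 40816668, and the size factors lay between 0.959 and 1.06.

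Lengths and positions came from GENCODE M21 (GRCm38), which matched 97.3% of genes with a mean of at least 10 by symbol or RefSeq synonym (Spi1 is listed as Sfpi1, Adgre1 as Emr1 and Chil3 as Chi3l3). Python 3.11.15, numpy 2.4.6, pandas 2.3.3 and matplotlib 3.10.9 were used, and the procedure was tested on simulated data. Named are the 9 genes, the CSF1 receptor axis and transcription factor lists in full, and of each other list the genes with the highest and lowest mean normalized count, except a few that are not reported here. The genes and lists were chosen with earlier results of these data known. Rank filters and lengths were varied.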

Additional observations from a re-analysis of the deposited data

How the results depend on the processing

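The median of the 9 genes exceeded 70.5% of the genes above 0, 59.2% of those that reached a mean of 10 and 77.8% of all genes listed. The fall and the rise follow from leaving out and adding low genes. Scaling to the table total cannot move ranks, so it tested nothing. Of the 36 pairs of genes, 36 kept their order per kilobase with median transcript lengths and 31 with coding lengths.

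No paired analysis was possible because only means over both age groups were used here. Fits with edgeR and limma, another scaling or filter of counts, the replicate block and leaving out each replicate were not run, as each needs a value per library. The pooled means limit every value here, since neither the spread between mice nor a difference with age can be read from them.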
